A study of Chlorocebus aethiops with 12 samples.

Results

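The cell cycle and replication genes described here are 36 genes listed by RefSeq accession, which run from the cyclins, the cyclin-dependent kinases (CDKs) and the factors that license replication origins to the machinery of mitosis and 2 CDK inhibitors. They were listed by name and not by any measured value, though with earlier results of these data known. Of the 36, 32 had a probe under the listed accession on the array, and all 32 were among the 24586 accessions tested. MCM7 (NM_005916), AURKA (NM_003600), BIRC5 (NM_001168) and UBE2C (NM_007019) had no probe under theirs and were not analysed here. Of the 32, 14 act mainly at the passage into S phase and in DNA replication, 16 mainly in G2 and mitosis, and 2 are inhibitors.

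In a dividing cell, cyclins bind CDKs and switch on the kinase activity that drives one phase into the next. Cyclin E with CDK2 leads into S phase, where licensed origins fire, and cyclin A and cyclin B with CDK1 lead into mitosis. CDKN1A and CDKN1B hold these kinases in check, and in many cell types glucocorticoids slow division and raise one or both of them.

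RNA was measured in COS-1, a kidney cell line of the African green monkey with a fibroblast-like shape. It carries the large T antigen of a simian virus, a protein known to bind and disable p53 and RB. Every culture had received the receptor S211A by transfection, the glucocorticoid receptor (GR) mutated at one phosphorylation site, and those of 2 groups had received MDFIC as well. The GR agonist dexamethasone (Dex), a synthetic glucocorticoid, was given at 100 nM for 6 h, starting 48 h after transfection. The 4 groups were S211A+MDFIC with Dex, S211A+MDFIC with vehicle, S211A with Dex and S211A with vehicle, each with 3 biological replicates per the labels. The study asked whether MDFIC alters the transcriptional response of a receptor that cannot be phosphorylated at this site. The sources used here do not say what share of the cells took up either construct, and no group went without the S211A receptor.

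The 12 samples were hybridised to one-colour arrays of a human design, so each value is the signal of monkey RNA on a human probe. Values are log2 signals minus the 75th percentile of their array, so that a level of 0 marks that percentile. They compare arrays for one gene and not one gene with another. The arrays lay on 3 slides. S211A Dex replicate 1 shared slide 1 with all 3 S211A vehicle arrays, and its replicates 2 and 3 shared slide 2 with S211A+MDFIC vehicle replicates 1 and 2. The 3 S211A+MDFIC Dex arrays and S211A+MDFIC vehicle replicate 3 lay on slide 3. Between 67.8% and 71.7% of the probes on slide 1, and between 76.2% and 80.6% of those on slides 2 and 3, were well above background. The probe used for each of the 32 members was well above background on all 12 arrays, and 3 arrays a group limit the precision. In such bulk RNA, fewer dividing cells and less RNA in each dividing cell cannot be told apart. The files pair accessions with no gene symbols, so further genes of the cell cycle and markers of the COS-1 cell type were not analysed here.

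In cells with the S211A receptor alone, few of these genes differed between Dex and vehicle, as few of all accessions did. The changes of the members were small. Under Dex 1 of the 32 members, CDKN1A, was lower by 21.4%, and none was higher, at a limma adjusted p under 0.05. Of all accessions, 6.50% passed this threshold, 4.31% higher and 2.20% lower, against 3.12% of the members. When only accessions well above background on all arrays were fitted, as every member was, 7.62% passed. The median log2 change was 0.01 over the members and 0.02 over all accessions. Changes of 30 of the 32 members, or 93.8%, lay within 0.25 of no change on the log2 scale, against 74.8% of all accessions. The 95% intervals of all 32 members lay within 0.5, as did those of 15897 of the 24586 accessions. The median SE was also smaller for the members, at 0.07 against 0.1 for all accessions. At an unadjusted p under 0.05 stood 6 members, or 18.8%, against 19.4% of all accessions. The arrays of the Dex and vehicle groups did not overlap for 5 members that were higher and 5 that were lower, where 25.9% of all accessions had no overlap.

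In S211A+MDFIC cells, Dex lowered 5 of the 32 members and raised 1. CDKN1A, CDKN1B, PCNA, CCNA2 and CDK1 fell by between 12.7% and 20.5%, and CDC20 rose 1.18-fold. The 6 make up 18.8% of the members, where 9.99% of all accessions passed, 6.26% higher and 3.73% lower. When only accessions well above background on all arrays were fitted, as every member was, 13.8% passed, with the same 6 members. No test was made of whether these shares differ. Changes were negative for 24 members, or 75%, against 41.2% of all accessions, and the median was -0.08 for the members and 0.05 for all. With quantile normalization, centring on the median or no scaling, the median of the members lay between -0.15 and -0.08, and that of all accessions between -0.02 and 0.01. With slide as a fixed block, 20 members were negative and 11 positive, and the median of the members was again -0.08. That fit sets the Dex arrays against S211A+MDFIC vehicle replicate 3 alone, the only vehicle array on their slide. It therefore does not show whether the shift holds across vehicle arrays. The groups did not overlap for 4 higher and 8 lower members, where 31.6% of all accessions had no overlap. At the unadjusted threshold stood 10 members, or 31.2%, against 26.6% of all accessions.

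The number of calls varied with how slide entered the fit and with single arrays left out, for the members as for all accessions. All 6 passed with slide as a random block, where 11.9% of all accessions did. With slide as a fixed block none of the 6 passed, where 2.43% of all accessions did. Their log2 changes kept their signs and ran from -0.31 to 0.23 (limma adjusted p = 0.0738 to 0.366). CDKN1A in S211A cells passed at -0.42 (limma adjusted p = 0.0202). In that fit the Dex change in S211A cells comes from slide 1 alone, where S211A Dex replicate 1 was the only Dex array. With MDFIC it comes from slide 3 alone, where vehicle replicate 3 was the only vehicle array. Without S211A+MDFIC vehicle replicate 1 or 2 or Dex replicate 3, 1 member passed, and without vehicle replicate 3 or Dex replicate 1, 2 passed, where 4.80% to 6.75% of all accessions did. Without Dex replicate 2, 8 members and 19.1% of all accessions passed.

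**Figure D1:**
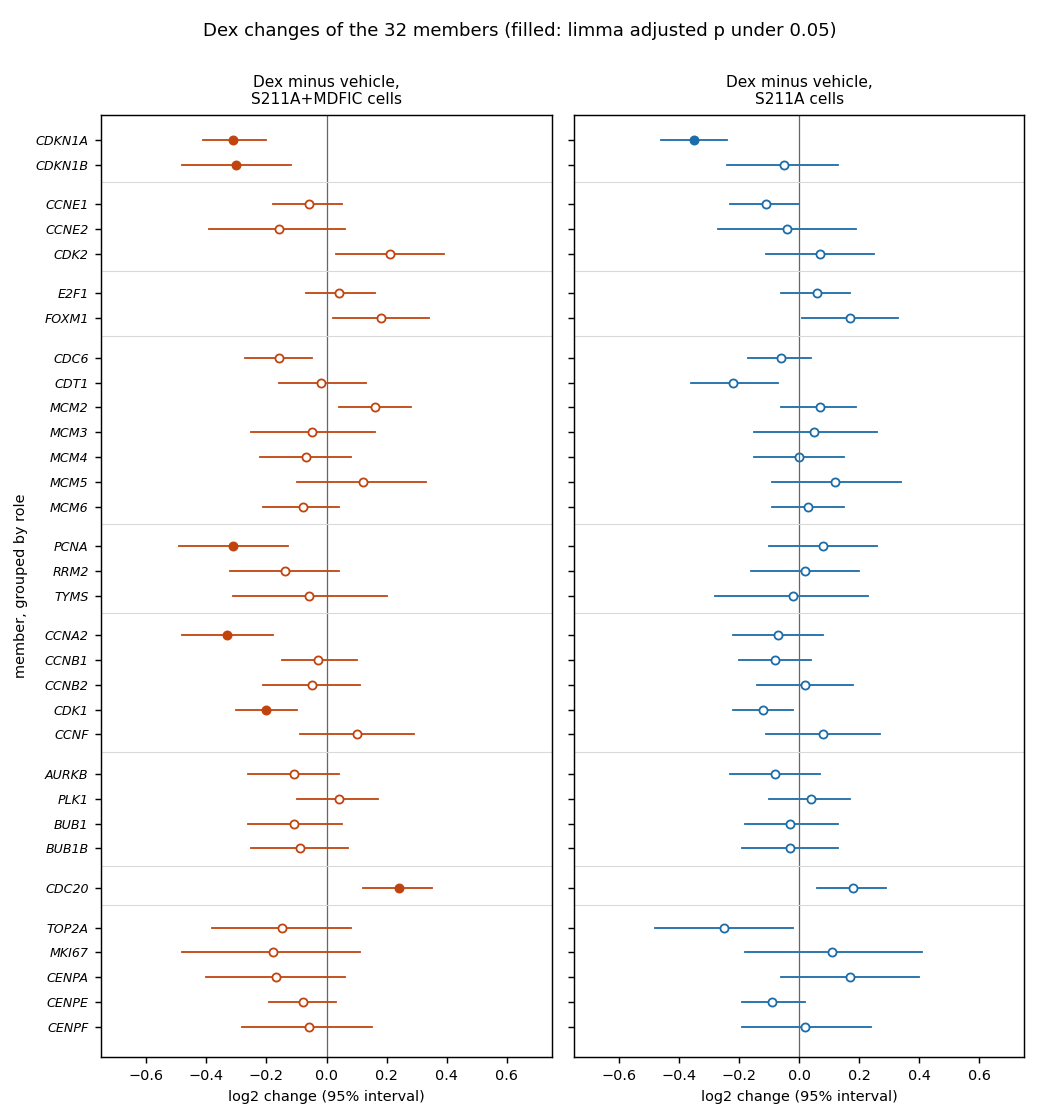
Log2 change of each of the 32 members, Dex minus vehicle, in S211A+MDFIC cells (left) and S211A cells (right), with members grouped by role. Points are fitted changes from 3 arrays a group, bars are 95% intervals, and filled points passed a limma adjusted p under 0.05: 6 members on the left and CDKN1A alone on the right.

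The CDK inhibitors held the member that changed in both settings. CDKN1A (NM_000389) encodes p21, which binds and blocks cyclin-CDK complexes. On the S211A Dex arrays it stood at 1.57, 1.69 and 1.66, against 1.97, 1.98 and 2.02 on the S211A vehicle arrays. All Dex arrays lay below all vehicle arrays, and the fall was 0.35 on the log2 scale (a log2 change of -0.35, SE 0.05, limma adjusted p = 0.00219). On the S211A+MDFIC Dex arrays it stood at 1.87, 1.77 and 1.83, against 2.14, 2.12 and 2.13 on the S211A+MDFIC vehicle arrays. These groups were apart as well, with a log2 change of -0.31 (SE 0.05, limma adjusted p = 0.00406), a fall of 19.1%. The probe was spotted 10 times on each array, and its spots varied within an array with an SD of 0.02 to 0.08 on the log2 scale. Within slide 1, with 1 Dex array against 3 vehicle arrays of S211A cells, the log2 change was -0.42. Within slide 3, with 3 Dex arrays against 1 vehicle array of S211A+MDFIC cells, it was -0.31. These are the same contrasts as with slide as a fixed block, so they are no separate check. Without scaling between arrays the changes were -0.37 and -0.35 and did not pass (limma adjusted p = 0.177 and 0.184).

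CDKN1B (NM_004064) encodes p27, an inhibitor of the same family. In S211A+MDFIC cells it stood at 1.21, 1.51 and 1.29 under Dex, against 1.63, 1.67 and 1.61 under vehicle. The groups were apart, with Dex replicate 2 nearest to the vehicle arrays, and the log2 change was -0.30 (SE 0.08, limma adjusted p = 0.046). In S211A cells it stood at 1.71, 1.5 and 1.62 under Dex, against 1.70, 1.68 and 1.62 under vehicle. These arrays overlapped, and the log2 change was -0.05 (SE 0.08, limma adjusted p = 0.767). A dimmer probe of CDKN1B gave another pattern, with log2 changes of -0.54 (SE 0.23) in S211A cells, where S211A Dex replicate 2 stood far below the rest at -3.25, and -0.13 (SE 0.23) in S211A+MDFIC cells. With the mean of both probes the change in S211A+MDFIC cells was -0.21 and did not pass (limma adjusted p = 0.33).

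**Figure D2:**
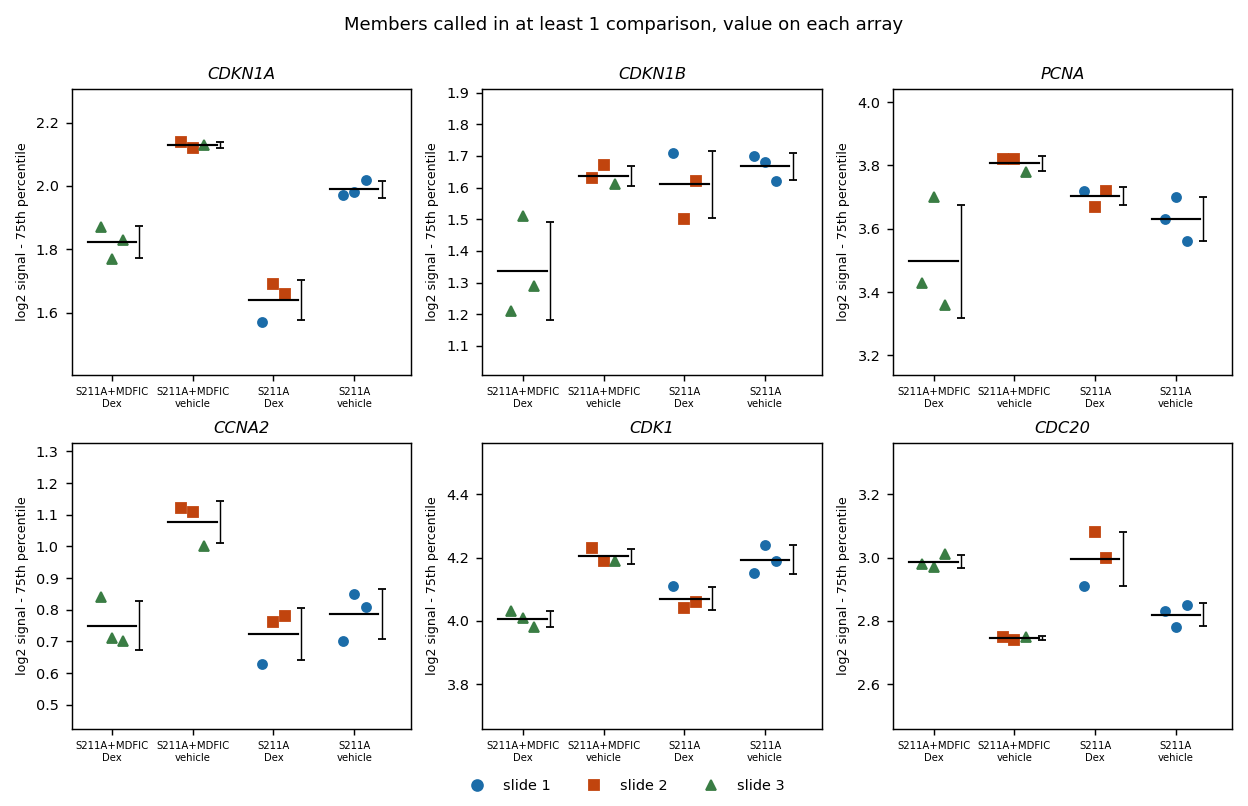
Level of the 6 members that passed in at least 1 comparison on each of the 12 arrays, as log2 signal minus the 75th percentile of the array. Symbols and colours mark the slide, horizontal lines are group means and bars their SD (n = 3), and every panel spans the same log2 range; CDKN1A was lower under Dex than under vehicle in both settings, and PCNA and CDKN1B had S211A+MDFIC Dex replicate 2 apart from replicates 1 and 3.

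Among the G1/S cyclins and their kinase, 0 of 3 members passed in either Dex comparison. CCNE2 (NM_057749), one of the E-type cyclins that activate CDK2, stood at -2.77, -2.77 and -2.96 on the S211A Dex arrays, against -2.77, -2.68 and -2.92 on the S211A vehicle arrays. With MDFIC it stood at -2.61, -2.95 and -2.64 under Dex, against -2.59, -2.50 and -2.61 under vehicle. The arrays overlapped in both settings, at log2 changes of -0.04 (SE 0.10) and -0.16 (SE 0.10). CCNE1, the other E-type cyclin, averaged 2.49 ± 0.03 under Dex and 2.56 ± 0.07 under vehicle with MDFIC, and 2.55 ± 0.02 under Dex and 2.67 ± 0.05 under vehicle without it (SD, n = 3 each, as for all means here). Its Dex arrays lay below the vehicle arrays in S211A cells, short of the threshold (log2 change -0.11, limma adjusted p = 0.258). CDK2 averaged -4.21 ± 0.16 under Dex and -4.42 ± 0.04 under vehicle with MDFIC, and -4.39 ± 0.06 and -4.46 ± 0.08 without it. The log2 change of CDK2 with MDFIC was 0.21 (SE 0.08, limma adjusted p = 0.134), and it passed only when S211A+MDFIC Dex replicate 2 was left out.

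Of the transcription factors, E2F1 (NM_005225) turns on the genes of S phase entry. It stood at 2.88, 2.86 and 2.83 on the S211A Dex arrays, against 2.81, 2.80 and 2.79 on the S211A vehicle arrays. With MDFIC it stood at 2.67, 2.83 and 2.81 under Dex, against 2.68, 2.77 and 2.73 under vehicle. The groups were apart in S211A cells and overlapped with MDFIC, at log2 changes of 0.06 and 0.04 (SE 0.05 each), neither of them past the threshold. FOXM1, which drives genes of G2 and mitosis, averaged 1.83 ± 0.12 under Dex and 1.65 ± 0.07 under vehicle with MDFIC, and 1.68 ± 0.08 and 1.51 ± 0.05 without it. All its Dex arrays lay above the vehicle arrays in both settings, with log2 changes of 0.18 and 0.17 that did not pass (limma adjusted p = 0.14 and 0.219).

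The origin licensing factors load the MCM helicase onto DNA before S phase, and 0 of 7 passed in either Dex comparison. CDT1 (NM_030928), which brings the helicase to origins, stood at 3.32, 3.14 and 3.20 on the S211A Dex arrays, against 3.40, 3.37 and 3.55 on the S211A vehicle arrays. With MDFIC it stood at 3.37, 3.26 and 3.32 under Dex, against 3.35, 3.35 and 3.30 under vehicle. The groups were apart in S211A cells only, with a log2 change of -0.22 (SE 0.06, limma adjusted p = 0.0905) that a second CDT1 probe did not show (-0.03, SE 0.07). CDC6, its partner in loading, averaged 2.12 ± 0.05 under Dex and 2.28 ± 0.03 under vehicle with MDFIC, and 2.10 ± 0.05 and 2.16 ± 0.03 without it. Its Dex arrays lay below its vehicle arrays with MDFIC, and the log2 change of -0.16 (SE 0.05) did not pass (limma adjusted p = 0.066).

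The helicase subunits moved little and not together. MCM2 averaged 3.67 ± 0.07 under Dex and 3.51 ± 0.03 under vehicle with MDFIC, and 3.63 ± 0.08 and 3.57 ± 0.01 without it. MCM3 averaged 3.83 ± 0.20 and 3.87 ± 0.07 under Dex and vehicle with MDFIC, and 3.94 ± 0.07 and 3.89 ± 0.03 without it. MCM4 averaged 3.42 ± 0.05 and 3.49 ± 0.11 under Dex and vehicle with MDFIC, and 3.41 ± 0.08 and 3.41 ± 0.03 without it. Log2 changes over the 7 licensing factors ran from -0.16 to 0.16 with MDFIC and from -0.22 to 0.12 without it. MCM5 averaged 3.58 ± 0.10 and 3.47 ± 0.09 under Dex and vehicle with MDFIC, and 3.60 ± 0.18 and 3.47 ± 0.08 without it. MCM6 averaged 4.15 ± 0.05 and 4.24 ± 0.03 under Dex and vehicle with MDFIC, and 4.21 ± 0.06 and 4.18 ± 0.07 without it. MCM2, at a log2 change of 0.16 with MDFIC (SE 0.05, limma adjusted p = 0.0988), was the one subunit whose Dex arrays all lay above the vehicle arrays. MCM6, at -0.08 with MDFIC (SE 0.06, limma adjusted p = 0.361), was the one whose Dex arrays all lay below them.

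Of the 3 genes of DNA synthesis, PCNA passed in S211A+MDFIC cells. PCNA (NM_002592), the sliding clamp of the replicative polymerases, stood there at 3.43, 3.70 and 3.36 under Dex, against 3.82, 3.82 and 3.78 under vehicle. The groups were apart, Dex replicate 2 was close to the vehicle arrays, and the log2 change was -0.31 (SE 0.08, limma adjusted p = 0.0403), a fall of 19.4%. In S211A cells PCNA stood at 3.72, 3.67 and 3.72 under Dex, against 3.63, 3.70 and 3.56 under vehicle, with overlap and a log2 change of 0.08 (SE 0.08, limma adjusted p = 0.661). RRM2, a subunit of ribonucleotide reductase, averaged 3.42 ± 0.07 under Dex and 3.56 ± 0.13 under vehicle with MDFIC, and 3.39 ± 0.05 and 3.37 ± 0.12 without it. Its other probe gave a log2 change of -0.41 (SE 0.11) with MDFIC, against -0.14 (SE 0.08) for the probe used, and passed when every probe was tested on its own. TYMS, which makes thymidylate, averaged 2.59 ± 0.20 and 2.64 ± 0.07 under Dex and vehicle with MDFIC, and 2.60 ± 0.19 and 2.62 ± 0.04 without it.

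The cyclins of S phase, G2 and mitosis and their kinase held 2 of the 6 calls. CCNA2 (NM_001237), the cyclin A of dividing cells, stood at 0.84, 0.71 and 0.70 on the S211A+MDFIC Dex arrays, against 1.12, 1.11 and 1.0 on the S211A+MDFIC vehicle arrays. On the S211A Dex arrays it stood at 0.63, 0.76 and 0.78, against 0.70, 0.85 and 0.81 on the S211A vehicle arrays. The 3 S211A+MDFIC vehicle arrays lay above the other 9, and the other groups overlapped. The log2 change under Dex was -0.33 with MDFIC (SE 0.07, limma adjusted p = 0.0141) and -0.07 without it (SE 0.07, limma adjusted p = 0.644).

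CDK1 (NM_001786), the kinase that triggers mitosis, showed lower Dex arrays in both settings. It stood at 4.03, 4.01 and 3.98 under Dex with MDFIC, against 4.23, 4.19 and 4.19 under vehicle. It stood at 4.11, 4.04 and 4.06 under Dex without MDFIC, against 4.15, 4.24 and 4.19 under vehicle. The groups were apart both times, with log2 changes of -0.20 (SE 0.04, limma adjusted p = 0.023) and -0.12 (SE 0.04, limma adjusted p = 0.17). CCNB1 (NM_031966), its main partner in mitosis, stood at 1.68, 1.64 and 1.58 under Dex with MDFIC, against 1.64, 1.63 and 1.71 under vehicle. Without MDFIC it stood at 1.80, 1.66 and 1.69 under Dex, against 1.80, 1.83 and 1.76 under vehicle. The arrays overlapped in both settings (log2 changes of -0.03 and -0.08, SE 0.05 each). CCNB2, a second B-type cyclin, averaged 4.19 ± 0.10 and 4.24 ± 0.04 under Dex and vehicle with MDFIC, and 4.35 ± 0.10 and 4.33 ± 0.08 without it. CCNF, which serves a ubiquitin ligase, averaged -2.37 ± 0.09 and -2.47 ± 0.16 under Dex and vehicle with MDFIC, and -2.34 ± 0.03 and -2.42 ± 0.08 without it.

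CDC20 (NM_001255), the activator of the anaphase-promoting complex, was the member that rose. It stood at 2.98, 2.97 and 3.01 on the S211A+MDFIC Dex arrays, against 2.75, 2.74 and 2.75 on the S211A+MDFIC vehicle arrays. It stood at 2.91, 3.08 and 3.00 on the S211A Dex arrays, against 2.83, 2.78 and 2.85 on the S211A vehicle arrays. All Dex arrays lay above all vehicle arrays in both settings. The log2 change was 0.24 with MDFIC (SE 0.05, limma adjusted p = 0.0191) and 0.18 without it (SE 0.05, limma adjusted p = 0.0831). The second of these passed, at 3 members in all with CDKN1A and TOP2A, once S211A Dex replicate 1 was left out. Without that array, the S211A Dex arrays lay on slide 2 and the S211A vehicle arrays on slide 1. Dex and slide then cannot be told apart. With slide as a fixed block, which rests on replicate 1, the CDC20 change without MDFIC was 0.09.

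None of the 4 mitotic kinases and checkpoint genes passed in either Dex comparison. AURKB, the kinase of the chromosomal passenger complex, averaged 0.58 ± 0.06 under Dex and 0.69 ± 0.11 under vehicle with MDFIC, and 0.58 ± 0.08 and 0.66 ± 0.03 without it. PLK1, a kinase of mitotic entry and spindle assembly, averaged 5.04 ± 0.06 and 5.0 ± 0.06 under Dex and vehicle with MDFIC, and 5.09 ± 0.09 and 5.05 ± 0.04 without it. Their log2 changes were -0.11 and 0.04 with MDFIC, and -0.08 and 0.04 without it. BUB1, a spindle checkpoint kinase, averaged 2.84 ± 0.14 and 2.94 ± 0.05 under Dex and vehicle with MDFIC, and 2.83 ± 0.00 and 2.86 ± 0.07 without it. BUB1B, which holds back the anaphase-promoting complex, averaged 1.86 ± 0.09 and 1.95 ± 0.12 under Dex and vehicle with MDFIC, and 1.80 ± 0.01 and 1.82 ± 0.07 without it. All 4 overlapped between Dex and vehicle in both settings.

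The kinetochore and chromosome proteins had 0 of 5 calls, and all 5 log2 changes with MDFIC were negative, between -0.18 and -0.06. With slide as a fixed block CENPF stood at 0.04 and CENPA at 0.00. MKI67 (NM_002417), the Ki-67 antigen of dividing cells, stood at -3.25, -2.60 and -2.80 under Dex with MDFIC, against -2.69, -2.68 and -2.72 under vehicle. Without MDFIC it stood at -2.76, -2.69 and -2.78 under Dex, against -2.83, -2.87 and -2.87 under vehicle. With MDFIC the Dex arrays lay on both sides of the vehicle arrays, and without it they lay above them, at log2 changes of -0.18 and 0.11 (SE 0.13 each, limma adjusted p = 0.409 and 0.69). The SD of MKI67 under Dex with MDFIC, 0.34, was the highest of any member in that group, where the median member had 0.08.

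Among the other 4 of these proteins, TOP2A, the topoisomerase that untangles chromosomes, averaged 0.60 ± 0.06 under Dex and 0.75 ± 0.10 under vehicle with MDFIC, and 0.59 ± 0.21 and 0.84 ± 0.10 without it. Its log2 change without MDFIC was -0.25 (SE 0.10, limma adjusted p = 0.215). S211A Dex replicate 1, on slide 1, lay among the vehicle arrays of that slide, and replicates 2 and 3, on slide 2, lay below them. With slide as a fixed block the change was -0.01. CENPA, the histone of centromeres, averaged 0.51 ± 0.13 and 0.69 ± 0.15 under Dex and vehicle with MDFIC, and 0.67 ± 0.08 and 0.51 ± 0.14 without it. The log2 change of CENPA was -0.17 with MDFIC and 0.17 without it, with overlapping arrays both times. CENPE, a motor of the kinetochore, averaged 2.12 ± 0.05 and 2.20 ± 0.01 under Dex and vehicle with MDFIC, and 2.09 ± 0.05 and 2.18 ± 0.04 without it. CENPF averaged 1.99 ± 0.17 and 2.05 ± 0.09 under Dex and vehicle with MDFIC, and 2.05 ± 0.14 and 2.02 ± 0.04 without it. CENPE had all Dex arrays below the vehicle arrays in both settings, at log2 changes of -0.08 and -0.09 that did not pass.

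The Dex changes in the presence and absence of MDFIC share no array, and 24 of the 32 members had the same sign in both, 8 higher and 16 lower. That is 75% of the members, against 62.7% of all accessions. Across the 32 genes, which are not independent replicates, the changes correlated with r = 0.51, against 0.44 across all accessions.

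**Figure D3:**
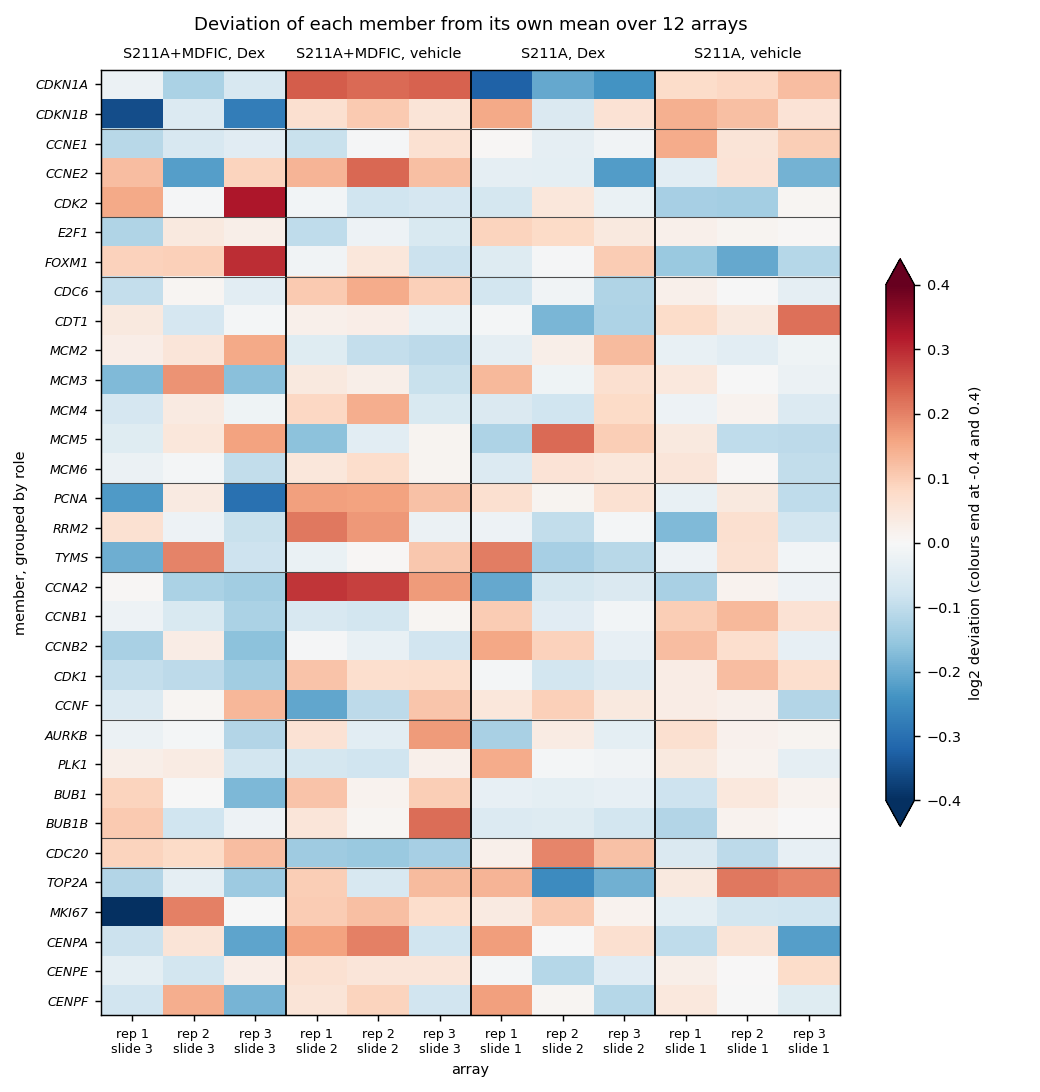
Deviation of each of the 32 members from its own mean over the 12 arrays, on the log2 scale, with arrays in columns by group and slide and members in rows by role. S211A+MDFIC vehicle was the group with the highest mean for 17 members, and S211A+MDFIC Dex the group with the lowest mean for 12. Replicate 2 of S211A+MDFIC Dex stands above replicates 1 and 3 for PCNA, CDKN1B, MCM3 and TYMS, and below them for CCNE2.

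The next question was whether MDFIC itself shifted these genes. With Dex present, 0 of the 32 members differed between S211A+MDFIC and S211A cells at a limma adjusted p under 0.05, where 0.427% of all accessions did. With vehicle the count was again 0 of 32 with limma, where 0.948% did. At an unadjusted p under 0.05 stood 3 members under Dex, or 9.38% against 13.5% of all accessions, and 5 under vehicle, or 15.6% against 16.5%. The median log2 change of the members was -0.01 under Dex and 0.02 under vehicle. All 32 of the 95% intervals lay within 0.5 in each, as did those of 16597 and 16594 of the 24586 accessions. Under Dex the arrays did not overlap for 1 member that was higher and 3 that were lower with MDFIC, where 15.0% of all accessions had no overlap. Under vehicle these numbers were 7 and 5, where 28.8% had no overlap. The largest MDFIC rise of any accession was that of NM_199072, which the files pair with no gene name, at a log2 change of 8.83 under Dex and 8.70 under vehicle.

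CDKN1A was the member with the largest fitted rise under Dex, at a log2 change of 0.19 (SE 0.05, limma adjusted p = 0.164). Its arrays were higher with MDFIC under vehicle too, at 0.14 (SE 0.05, limma adjusted p = 0.188), and the groups were apart both times. CDKN1B had the largest fitted fall under Dex, at -0.28 (SE 0.08, limma adjusted p = 0.211), with overlap, while its other probe stood at 0.23 (SE 0.23). PCNA followed at -0.21 (SE 0.08, limma adjusted p = 0.318). The CDKN1B probe used and PCNA passed when S211A+MDFIC Dex replicate 2 was left out, at -0.37 and -0.31 (limma adjusted p = 0.0373 and 0.0353). Under vehicle the largest fitted rise was that of CCNA2, at 0.29 (SE 0.07, limma adjusted p = 0.0844), and the largest fitted fall that of CCNB1, at -0.14 (SE 0.05, limma adjusted p = 0.247). Both had no overlap between the groups. CDC6 and RRM2 had log2 changes of 0.12 and 0.18 under vehicle, at an unadjusted limma p of 0.0304 and 0.0485.

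No slide held both groups of either MDFIC comparison, so slide and MDFIC can be told apart only through the arrays that link the slides. With slide as a fixed block CCNA2 under vehicle stood at 0.18 (limma adjusted p = 0.578), and with slide as a random block at 0.30, where it passed (limma adjusted p = 0.0448).

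The last comparison asks whether Dex acted differently once MDFIC was present. With limma, 0 of the 32 members passed, where 0.268% of all accessions did, and 3 members, or 9.38%, stood at an unadjusted p under 0.05, against 9.85% of all accessions. The median difference, with MDFIC minus without, was -0.05 over the members and 0.01 over all accessions. PCNA had the largest negative difference, at -0.39 on the log2 scale (95% interval -0.64 to -0.13, limma adjusted p = 0.326). CENPA followed at -0.34 (-0.67 to -0.02, limma adjusted p = 0.491), MKI67 at -0.30 (-0.71 to 0.12, limma adjusted p = 0.609) and CCNA2 at -0.26 (-0.48 to -0.05, limma adjusted p = 0.428). The largest positive difference was that of CDT1, at 0.20 (-0.01 to 0.40, limma adjusted p = 0.515), where its second probe gave 0.02 (SE 0.10). For CDKN1A the difference was 0.04, with an interval of -0.11 to 0.20. So the calls that CCNA2, CDK1, CDC20, PCNA and CDKN1B had in S211A+MDFIC cells and lacked in S211A cells were not shown to differ between the settings. Without S211A+MDFIC Dex replicate 2 the difference for PCNA was -0.49 and passed (limma adjusted p = 0.0412), and with slide as a fixed block it was -0.37 (limma adjusted p = 0.715).

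**Figure D4:**
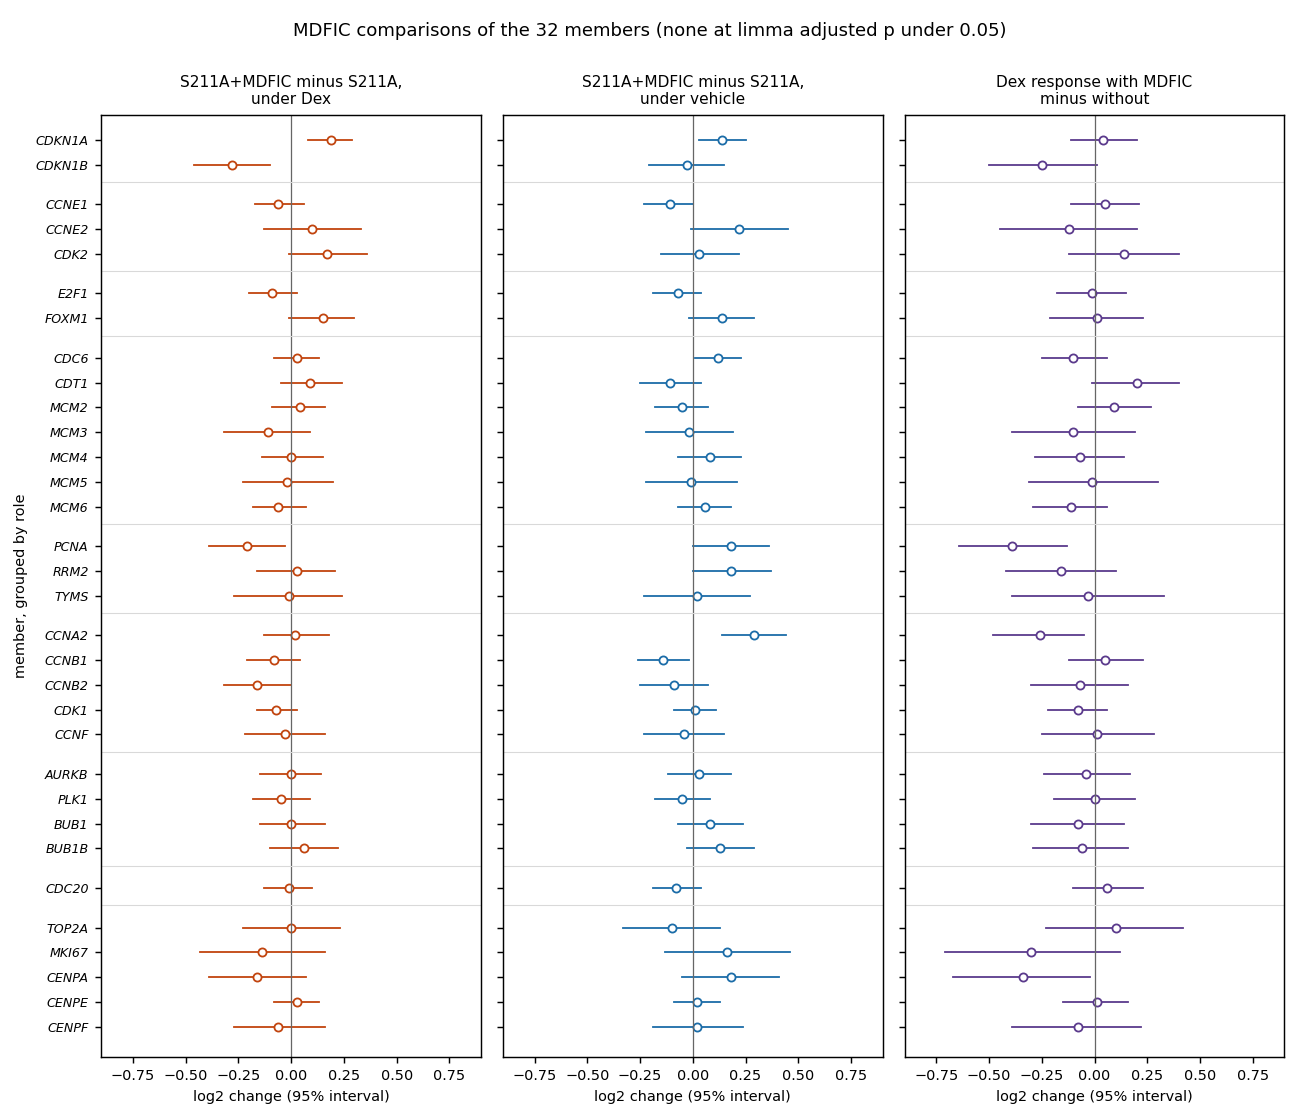
Log2 change of each of the 32 members for S211A+MDFIC minus S211A under Dex (left) and under vehicle (middle), and for the Dex response with MDFIC minus that without (right), with members grouped by role. Points are fitted values, bars 95% intervals, and open points mark that none of the 32 passed a limma adjusted p under 0.05 in any of the 3.

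The 4 groups were close for most of these genes. The gap between the highest and the lowest group mean had a median of 0.17 over the members, from 0.06 for TYMS and CENPF to 0.49 for CDKN1A, against a median of 0.26 over all accessions. The SD within a group was smaller for the members too, with medians of 0.05 to 0.08 against 0.08 to 0.13 over all accessions. Whether the narrower gap goes beyond this was not tested. The highest mean lay in the S211A+MDFIC vehicle group for 17 of the 32 members, where this group was highest for 19.1% of all accessions. The lowest mean lay in the S211A+MDFIC Dex group for 12 members, where it was lowest for 24.5% of all accessions. The Dex comparison with MDFIC, the MDFIC comparison under vehicle and the difference between the Dex responses all use these S211A+MDFIC vehicle arrays, so they are not separate evidence. Within the S211A+MDFIC Dex group, replicate 2 was the highest of the 3 arrays for 15 of the 32 members, against 26.6% of all accessions. It was the lowest for 7 members, against 52.8% of all accessions.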

How the data were processed

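The deposited values are spot intensity on a linear scale, made by the authors with Feature Extraction 12.0.0.7, with the background subtracted and the signal detrended, per the file headers; the submitters' processing notes name version 12. The deposited flags mark spots that are outliers, saturated or well above background, per the file headers. From the 45015 spots per array, the 1639 control spots were left out and the 945 outlier spots set to missing; none was saturated. The signal was taken to log2, the 75th percentile of the array was subtracted, and spots of 1 probe were averaged. A probe was kept where some group had it well above background on its 3 arrays, and the probe with the highest mean stood for its accession; 6 members had 2 probes.

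Groups came from the sample titles. The 5 comparisons were fitted with limma 3.58.1 in R 4.3.3 on 4 group means over 12 arrays, and p-values were adjusted by Benjamini-Hochberg over 24586 accessions, two-sided. The steps were run on simulated data without slide effects, and checked there only at changes larger than those of the members called. Correlations within a group were 0.986 to 0.996. The labels give replicate numbers. The 18 correlations between same-numbered arrays' deviations ran from -0.26 to 0.25, with 4 over 0.1, so the numbers were not taken as pairs. Per-array values were printed for members called anywhere, for CDKN1A, CDKN1B, CCNE2, E2F1, PCNA, CCNB1 and MKI67, and for the largest fitted rise and fall of each comparison; other members got group means. The members and lists were chosen with earlier results of these data known. Figures were drawn with matplotlib 3.10.9. Alternatives were normexp (offset 50) on the median spot signal, since no mean signal was used here, other scalings, filters, probe rules, variance moderation, a fold minimum of 1.2, slide and replicate blocks, and leaving out arrays singly.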

Additional observations from a re-analysis of the deposited data

How the results depend on the processing

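No member that passed changed sign under any of the 26 alternatives run for it. For Dex in S211A cells, where 1 member passed, none passed without scaling between arrays (0) or within slide 1 (0), 3 passed with trend and robust moderation (CDC20, CDKN1A and CDT1), and between 1 and 3 passed with an array left out. For Dex in S211A+MDFIC cells, where 6 passed, the count was 2 with each array centred on its median, 0 without scaling, 1 with only the compared groups in the fit, 0 with slide as a fixed block, 0 within slide 3, and 1 to 8 with an array left out. For MDFIC under vehicle, 1 member, CCNA2, passed with trend and robust moderation and 1, CCNA2, with slide as a random block, against 0. For MDFIC under Dex 0 to 2 passed with an array left out, and 0 to 1 in the comparison of the Dex responses, above 0 only without S211A+MDFIC Dex replicate 2. The fits within a slide have fewer arrays; the cause of the other shifts was not tested. CDKN1A passed under 24 of 26 alternatives in S211A cells and 23 of 26 in S211A+MDFIC cells. There CCNA2 passed under 19, CDC20 under 16, CDK1 under 15, PCNA under 9 and CDKN1B under 8. Without scaling, the median of all accessions stood at 0.12 for MDFIC under Dex and under vehicle, against 0.01 and -0.01 with scaling. With the replicate block, the counts of the 5 comparisons were 1, 5, 0, 0 and 0, with CDKN1B in S211A+MDFIC cells lost (limma adjusted p = 0.08). The probe used for each of the 32 members was well above background on all arrays. With normexp background correction, 4 members still passed for Dex in S211A+MDFIC cells. CDK1 and CDKN1B did not (limma adjusted p = 0.121 and 0.0522). Whether signal over background or the 3 arrays a group limited the calls was not tested.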
